A study of Mus musculus with 2 samples.

Results

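Open chromatin was described at 7 genes of cholesterol synthesis and of its control by the sterol regulatory element-binding proteins (SREBPs). The enzymes were Hmgcs1, Sqle, Lss, Cyp51 and Dhcr7, and the regulators were Srebf2 and Insig1. The 7 were taken by symbol, and all 7 were found among 21911 mouse protein-coding genes. The measurements come from DNase-seq of whole testis from male B6CASTF1/J mice aged 14 days, an assay that sequences the ends left where the nuclease DNase I has cut accessible DNA. B6CASTF1/J mice are F1 hybrids with a C57BL/6 and a castaneus parent. The 2 libraries form 1 group, for which the labels name no treatment and no engineered allele. Replicate 1 is labelled as 3 males and replicate 2 without a count of animals. Since the donor label is the same, the spread between them may be technical in part. With 1 group there was no contrast to test.

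Cholesterol is built from acetyl-CoA through mevalonate to squalene, which is closed into lanosterol and then trimmed and reduced to cholesterol. When membranes hold little sterol, Scap carries the SREBPs from the endoplasmic reticulum to the Golgi, where a pair of proteases frees the part that enters the nucleus and activates the pathway's genes, while the Insig proteins hold the complex back when sterol is plentiful. In the testis, Leydig cells use cholesterol for androgen synthesis, and germ cells make sterol intermediates themselves.

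Replicate 1 had 101172 peaks in the longer of its peak lists, and replicate 2 had 117359. The median peak was 192 bp wide in replicate 1 and 191 bp in replicate 2. The footprint lists, stretches within open chromatin that are spared from cutting, held 269247 and 349555 entries. The value of a peak is the authors' own signal column, on a scale that no source used here explains, and read depth is unknown. The median peak value was 0.543 in replicate 1 and 0.506 in replicate 2. The tissue label was set against marker promoters. Peaks in both libraries were found at 4 of 4 germ cell genes (median value 9.29), 5 of 5 Sertoli cell genes (2.14), 4 of 5 Leydig cell genes (0.523) and 0 of 4 liver genes. Hsd3b1 was the Leydig gene without a peak, and of the liver genes Ttr alone had one, in replicate 2 (0.657). Promoter peaks in both libraries were common, at 68.7% of the 21911 genes. The 4 of 5 thus does not set Leydig cell genes apart. Fshr, a Sertoli cell gene, had 0.253 in replicate 1 and 0.313 in replicate 2. Lhcgr, a Leydig cell gene, had 0.457 and 0.344. Both genes lay below the median peak value of each library. Cyp11a1 lay below it in replicate 1 (0.392) and above it in replicate 2 (0.589). The other markers with peaks in both libraries lay above it. Summed over a whole tissue, fewer open cells of a type and less cutting per cell cannot be told apart.

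DNA of the highest promoter peak of each gene is shown first, because footprints and motif matches described further on lie in it. Each run is read in the direction of the gene, 5′ to 3′, from the mouse genome GRCm38.p6 (the build called mm10), and ends after at most 30 bases of annotated UTR. A run holds at most 300 bases, so that of Hmgcs1 starts 270 bases before the 5′ end, although the peak starts farther upstream. Footprints and matches outside a run are described but not printed. Capitals mark bases that lay in a footprint of both libraries. The runs are chr13:119690109-119690408 on the plus strand for Hmgcs1, chr15:59314821-59315100 (plus) for Sqle, chr10:76531381-76531636 (plus) for Lss, chr5:4104717-4104880 (minus) for Cyp51, chr7:143822841-143823080 (plus) for Dhcr7, chr15:82147001-82147210 (plus) for Srebf2 and chr5:28071141-28071380 (plus) for Insig1.
Hmgcs1: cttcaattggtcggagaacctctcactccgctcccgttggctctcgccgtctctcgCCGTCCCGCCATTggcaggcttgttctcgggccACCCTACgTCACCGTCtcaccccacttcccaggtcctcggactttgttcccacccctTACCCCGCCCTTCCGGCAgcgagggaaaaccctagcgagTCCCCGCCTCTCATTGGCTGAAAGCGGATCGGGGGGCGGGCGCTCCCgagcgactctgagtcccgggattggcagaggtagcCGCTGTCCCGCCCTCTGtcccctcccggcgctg
Sqle: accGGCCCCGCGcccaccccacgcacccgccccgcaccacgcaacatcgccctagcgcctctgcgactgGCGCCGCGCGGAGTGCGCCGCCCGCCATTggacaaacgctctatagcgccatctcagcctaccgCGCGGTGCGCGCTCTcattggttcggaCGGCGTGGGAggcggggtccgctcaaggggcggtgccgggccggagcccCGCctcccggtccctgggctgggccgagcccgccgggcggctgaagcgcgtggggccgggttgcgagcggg
Lss: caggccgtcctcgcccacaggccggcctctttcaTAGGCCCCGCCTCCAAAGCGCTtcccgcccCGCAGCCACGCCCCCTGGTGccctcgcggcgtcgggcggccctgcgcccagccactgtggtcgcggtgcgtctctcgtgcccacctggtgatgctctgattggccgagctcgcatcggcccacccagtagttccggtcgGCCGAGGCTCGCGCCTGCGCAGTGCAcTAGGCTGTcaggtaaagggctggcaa
Cyp51: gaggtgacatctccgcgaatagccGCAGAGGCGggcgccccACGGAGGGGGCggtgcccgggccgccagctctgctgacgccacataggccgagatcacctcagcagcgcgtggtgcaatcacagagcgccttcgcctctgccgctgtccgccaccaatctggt
Dhcr7: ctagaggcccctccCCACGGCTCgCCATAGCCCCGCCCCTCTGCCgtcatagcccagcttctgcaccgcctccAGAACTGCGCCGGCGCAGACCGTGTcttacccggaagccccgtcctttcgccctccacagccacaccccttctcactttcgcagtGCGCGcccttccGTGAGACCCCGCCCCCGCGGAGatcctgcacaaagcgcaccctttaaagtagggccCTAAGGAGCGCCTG
Srebf2: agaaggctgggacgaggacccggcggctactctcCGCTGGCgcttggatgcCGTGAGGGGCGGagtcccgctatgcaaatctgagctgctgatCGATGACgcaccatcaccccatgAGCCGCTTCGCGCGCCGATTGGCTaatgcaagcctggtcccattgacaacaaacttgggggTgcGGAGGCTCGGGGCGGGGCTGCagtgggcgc
Insig1: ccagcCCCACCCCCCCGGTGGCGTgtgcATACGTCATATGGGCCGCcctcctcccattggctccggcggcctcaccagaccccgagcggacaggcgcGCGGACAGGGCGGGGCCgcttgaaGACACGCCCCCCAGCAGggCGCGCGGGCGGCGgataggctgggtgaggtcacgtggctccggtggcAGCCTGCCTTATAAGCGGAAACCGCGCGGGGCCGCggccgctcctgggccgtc
In Insig1 capitals cover 119 of 240 bases, and in Cyp51 they cover 20 of 164. The Cyp51 run leaves out part of its peak. Over the whole region of the highest peaks the share was 15.9% at Cyp51, against 49.6% at Insig1. The 2 promoters also differ in peak value, and whether fewer listed footprints mean less protection was not tested.

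All 7 promoters were open in both libraries, where open means a peak within 1000 bp of an annotated start. Over all protein-coding genes that share was 68.7% (15057 of 21911). Per library, a gene's promoter value was taken as that of its highest promoter peak. The median over the 7 genes was 14.0 in replicate 1 and 13.5 in replicate 2, or 13.7 ± 0.35 (SD, n = 2), against 4.04 and 3.68 over all open genes (3.86 ± 0.26). Of the 7, 5 lay close together at means of 14.1 to 15.6, Sqle lay lower at 9.82 and Cyp51 lowest at 4.03.

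Among the enzymes, Hmgcs1 makes HMG-CoA in the cytosol, the precursor of mevalonate. The gene lies on chromosome 13 (119690379 to 119708260, plus strand), and its promoter peak had a value of 13.96 in replicate 1 and 15.12 in replicate 2 (14.5 ± 0.82, SD, n = 2). It ranked 1182 and 889 among all genes of its library. The peak region, from the outermost ends of both libraries' peaks, ran from position -338 to 41, counted from 0 at the gene's 5′ end, and was the widest of the 7 at 380 bp.

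Sqle encodes squalene epoxidase, the first enzyme of the pathway to use oxygen (chromosome 15, 59315077 to 59331192, plus strand). Its value was 11.48 in replicate 1 and 8.16 in replicate 2 (9.82 ± 2.3), with ranks 2149 and 3630. The listed peak was 260 bp wide in replicate 1, from -236 to 23, and 160 bp wide in replicate 2, from -256 to -97. The peak of replicate 2 thus stopped short of the 5′ end, which that of replicate 1 covered.

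Lss, which closes oxidosqualene into lanosterol, lies on chromosome 10 (76531588 to 76557138, plus strand). Its promoter had 15.02 in replicate 1 and 13.20 in replicate 2 (14.1 ± 1.3), with ranks 913 and 1383. It was the only one of the 7 with a single promoter peak in each library.

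Cyp51, the cytochrome P450 that demethylates lanosterol, was the weakest of the 7 (chromosome 5, 4081145 to 4104746, minus strand). The value was 4.05 in replicate 1 and 4.01 in replicate 2 (4.03 ± 0.032), and 65.7% and 67.4% of all genes lay below it. Both values are close to the median of open genes. Its open chromatin was split between a pair of peaks of similar value. The other peak, from 106 to 385 inside the transcribed region, had 4.01 in replicate 1 and 3.27 in replicate 2 and reached over an annotated start at 325. The lower rank of Cyp51 therefore refers to the higher of 2 adjoining peaks.

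Dhcr7 reduces 7-dehydrocholesterol to cholesterol (chromosome 7, 143823145 to 143848410, plus strand). Its highest peak had 15.12 in replicate 1 and 14.01 in replicate 2 (14.6 ± 0.79), with ranks 884 and 1134. This peak, from -304 to -65, also lay in the promoter window of Nadsyn1, the NAD synthetase gene next to it, so its value belongs to both genes. Dhcr7 has 12 annotated starts, and a further peak covered the starts at 6932 and 7089 inside the gene. That internal peak had 7.33 in replicate 1 and 7.66 in replicate 2 (7.50 ± 0.24). Of it, chr7:143830021-143830106 (plus strand, GRCm38.p6), up to 30 bases past the inner start, is shown because it opens with GC-rich bases spared in both libraries:
Dhcr7 internal peak: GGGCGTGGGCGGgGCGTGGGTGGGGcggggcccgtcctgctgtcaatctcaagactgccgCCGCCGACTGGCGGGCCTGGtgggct
A smaller peak at the start at 6481 had 1.67 in replicate 1 and 1.60 in replicate 2.

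Of the regulators, Srebf2 encodes SREBP-2, the factor that drives the cholesterol genes (chromosome 15, 82147181 to 82205379, plus strand). Its value was 13.98 in replicate 1 and 16.03 in replicate 2 (15.01 ± 1.45), with ranks 1175 and 724. The annotated start at 832 had a peak of its own within 100 bp in replicate 2 (1.69) and none in replicate 1. No peak of either library lay within 1000 bp of the start at 47791 inside the gene.

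Insig1 encodes the membrane protein that retains the Scap-SREBP complex and is itself a gene that SREBPs activate (chromosome 5, 28071363 to 28078662, plus strand). Its promoter value was 17.70 in replicate 1, the highest of any of the 7 in either library, and 13.48 in replicate 2 (15.6 ± 3.0). The ranks were 378 and 1311. No peak of either library lay within 1000 bp of its other annotated start at 3303.

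**Figure D1:**
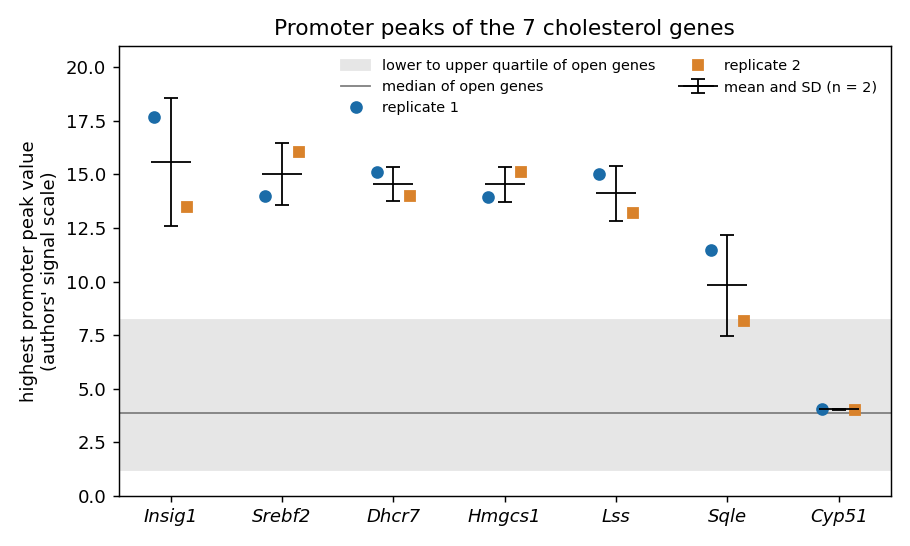
Value of the highest promoter peak (vertical axis, the authors' signal scale) of the 7 genes in replicate 1 and replicate 2, with the mean and SD (n = 2), the grey band marking the lower to upper quartile of open genes (1.22 to 8.22) and the grey line their median. Insig1, Srebf2, Dhcr7, Hmgcs1 and Lss lie above the band in both libraries with overlapping ranges, Sqle lies above it in replicate 1 only, and Cyp51 lies on the median line.

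In the order Insig1, Srebf2, Dhcr7, Hmgcs1, Lss, Sqle and Cyp51, neighbours among the first 5 overlapped in the range of their 2 libraries. The range of Sqle, 8.16 to 11.48, stood below that of Lss, 13.20 to 15.02, and above that of Cyp51, 4.01 to 4.05. With 2 libraries these ranges are a description. As log2 of replicate 2 over replicate 1, the libraries differed by a median of -0.07 over all open genes, with an SD of 0.28. Sqle differed most among the 7, with a log2 ratio of -0.49, and 13.0% of open genes lay farther from the median. The ratio of Insig1 was -0.39, and those of Srebf2, 0.20, and Hmgcs1, 0.12, had the opposite sign, so the 7 did not move together between the libraries.

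The deposited track of false discovery rates (FDR) along the genome put Insig1 first and Cyp51 last in both libraries. By peak value Cyp51 was also last in both, but Insig1 was first in replicate 1 alone. In replicate 2 the value of Insig1, 13.48, lay below those of Srebf2, Hmgcs1 and Dhcr7. In the promoter windows of Insig1 the lowest FDR was listed at 0 in both libraries. Dhcr7 reached 4.98e-306 in replicate 1 and 1.21e-214 in replicate 2, and Lss 4.24e-275 and 1.15e-222. Srebf2 reached 4.47e-203 and 3.62e-227, and Hmgcs1 8.46e-189 and 4.53e-200. Sqle reached 2.99e-173 and 2.45e-117, and Cyp51 2.53e-83 and 4.20e-90. These windows overlap the peaks and come from the same alignments, so they are not a separate measurement.

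Beyond these promoters, the annotated starts inside Sqle at 10466, inside Lss at 10294, 19622 and 20683, and inside Dhcr7 at 13506, 17784 and 18189 had no peak within 1000 bp in either library. In each of the 7 genes the highest peak lay within 1000 bp of the annotated 5′ end, and its midpoint fell between -184.5 and -24.5. The GC content of the regions was 65.5% to 76.8%, with a median of 69.5%. The median was 65.4% over open genes and 66.1% over open genes whose mean value fell within the range of the 7. The ratio of observed to expected CpG was 0.847 to 1.045, with a median of 0.872. That median was 0.810 over open genes and 0.887 over those within the value range. This range runs from 4.03 to 15.6, and its genes had a median value of 7.80, against 13.7 for the 7. As a set they are thus of lower value than the 7, here and below.

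Footprints showed which bases within the open stretch were spared from cutting. Over the 1900 bp of the 7 regions, 39 footprints were listed in replicate 1 and 46 in replicate 2. All 39 of replicate 1 (100%) overlapped one of replicate 2, and 37 of the 46 of replicate 2 (80.4%) overlapped one of replicate 1. Over the highest promoter peaks of 14303 open genes, in which those of both libraries overlap, these shares were 76.5% and 71.0%. Open genes had a lower median value than the 7 (3.86 against 13.7), and no such share was taken over genes of like value. The footprints numbered 2.05 and 2.42 per 100 bp of the 7 regions pooled. As a median per gene, the 7 had 1.84 per 100 bp in replicate 1 and 2.50 in replicate 2. Open genes had 1.92 and 2.00, and open genes whose mean value fell within the range of the 7 had 2.22 and 2.22.

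The share of bases in footprints of both libraries was highest at Insig1, with 49.6%, followed by Dhcr7 with 40.0%, Hmgcs1 with 33.7% and Srebf2 with 32.1%. Lss had 29.2%, Sqle 23.6% and Cyp51 15.9%. The median of the 7 was 32.1%, against 21.4% over open genes. Over the 6472 open genes whose mean value fell within the range of the 7 the median was 29.4%. At Insig1 the longest protected stretch ended at the 5′ end, from -35 to -1 in replicate 1 and from -35 to 2 in replicate 2. At Hmgcs1 it ran from -85 to -39 in replicate 1 and from -87 to -39 in replicate 2, so both libraries placed these borders within 3 bases of each other.

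**Figure D2:**
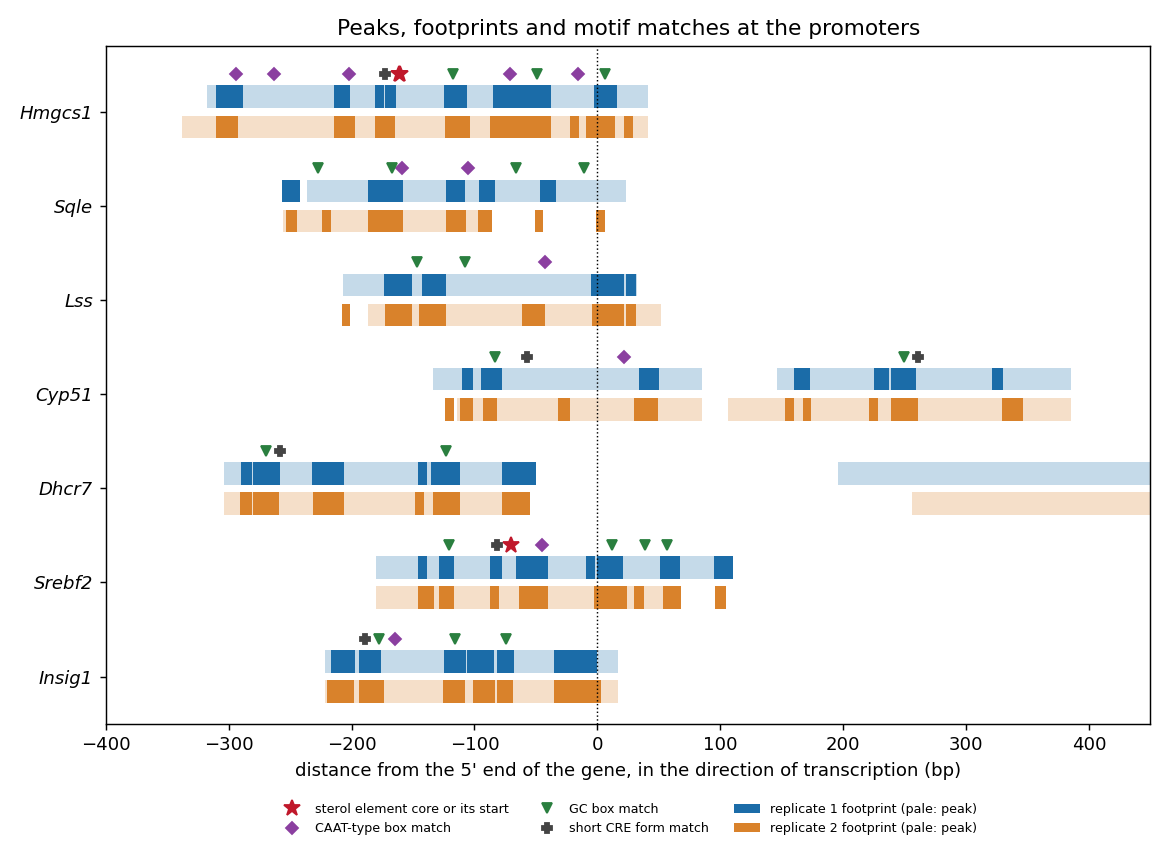
Peaks (pale bars) and footprints (dark bars) of replicate 1 and replicate 2 at the promoters of the 7 genes, by distance from the 5′ end in bp, with motif matches in the highest peaks and in the other Cyp51 peak as symbols above (the diamond is the CCAAT box, and footprints are drawn in those peaks only). Footprints of both libraries line up at most places, they cover the largest share of bases at Insig1 and the smallest at Cyp51, and the sterol element symbols of Hmgcs1 and Srebf2, drawn at the middle of each match, stand beside footprints. A weaker Dhcr7 peak runs on past the right edge.

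Sequences known from sterol-controlled promoters were looked for in the peak regions on both strands: the sterol regulatory element core TCACNCCAC, its first 8 bases TCACNCCA, the E-box form TCACGTGA to which SREBPs also bind, the CCAAT box CCAAT bound by NF-Y, the GC box GGGCGG bound by Sp1, and the cyclic AMP element TGACGTCA with its short form TGACG. The 8-base start is part of the core and the short form is part of the whole cyclic AMP element, so such matches count under both. A match is a description of letters and not a binding site. Only these exact letters were searched, so variant forms of an element were not counted, and a region without a match may hold one.

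The sterol element core occurred in 1 of the 7 regions, at Hmgcs1 from -165 to -157, in lower case right after the capitals TCACCGTC in the printed run. The share over 13022 distinct regions of open genes was 0.945%. Of its 9 bases, 1 lay in a footprint of replicate 1 and 0 in one of replicate 2, since the footprint beside it ended at -165 in replicate 1 and at -166 in replicate 2. The 8-base start also occurred in Srebf2, from -74 to -67, and in 2.73% of the open regions. None of its bases were in a footprint of either library. It fell between a footprint that ended at -79 in replicate 1 and at -81 in replicate 2 and another that began at -66 in replicate 1 and at -64 in replicate 2. Over all open regions, 23.4% of the 124 core matches had a base in footprints of both libraries. The exact letters of the E-box form and of the whole cyclic AMP element were in 0 of the 7 regions, against 1.77% and 3.66% of open regions. The printed Insig1 run holds TCACGTGG in lower case, which differs from the searched E-box form in its last base and was not counted.

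The CCAAT box occurred in 6 of the 7 regions (85.7%), all but that of Dhcr7, against 35.7% of open regions and 41.6% of those within the value range of the 7. Hmgcs1 held 5 of the 11 matches. Footprints of both libraries covered all bases of 2 of the 11 (18.2%), one at Hmgcs1 from -73 to -69 and one at Srebf2 from -47 to -43. That share was near the 17.2% of such matches in open regions and the 20.5% in those within the value range. Footprints of both libraries touched 5 of the 11 (45.5%), against 33.6% and 40.0%. The GC box occurred in all 7 regions with 19 matches, against 67.0% of open regions and 74.6% of those within the value range. Of these 19, 11 (57.9%) lay wholly in footprints of both libraries, against 34.2% of the matches in open regions and 46.0% in those within the value range of the 7. At Hmgcs1 all 3 GC boxes were covered in this way, at Sqle 1 of 4 and at Lss 0 of 2. Of the 19, 13 (68.4%) were touched by footprints of both libraries, against 53.4% and 67.6%. By touch, the 7 were thus near the share of the value range. The short cyclic AMP form was in 5 of 7 regions (71.4%), against 30.9% of open regions and 38.8% of those within the value range. Footprints of both libraries covered all bases of 1 of the 5 matches, at Insig1 from -191 to -187. Such cover was found for 25.9% of matches in open regions and 32.5% in those within the value range. Footprints of both libraries touched 4 of the 5, against 40% and 47.9%.

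The same letters were counted in RefSeq promoters of 300 bases (GRCm38.p6), which held 6 of the 7 genes and not Sqle. There the CCAAT box was in 6 of 6, against 42.1% of 16522 genes, and the GC box in 6 of 6, against 51.0%. The sterol element core was in 1 of 6, against 1.42%, and its 8-base start in 2 of 6, against 4.66%. These shares carry no test.

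Of 33 other genes of the pathway, 32 were open in both libraries (97.0%, against the 68.7% of all genes), with a median value of 7.66 in replicate 1 and 6.97 in replicate 2 (7.31 ± 0.49, SD, n = 2). The median of the 7 genes was higher, at 13.7 ± 0.35. The members and lists were chosen with earlier results of these data known, so this difference is a description. Each SD is the spread between libraries and not between genes. By role, the 8 genes of the mevalonate steps had a median of 11.9 ± 0.97 and those of the steps after lanosterol, also 8, 7.11 ± 0.67. The 8 genes of SREBP control had 6.53 ± 1.4 and the 9 genes of uptake, transport and storage 6.22 ± 0.032.

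In the mevalonate list, Fdft1, squalene synthase, had the highest value, 16.8 in replicate 1 and 20.1 in replicate 2. Acat2, the cytosolic thiolase that joins acetyl-CoA units, had 6.06 and 5.93, and Pmvk, phosphomevalonate kinase, had the lowest, 3.07 and 2.84. Fdft1 thus stood above Hmgcs1 in both libraries, while Pmvk lay below the median of open genes in both libraries.

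After lanosterol, Hsd17b7, a sterol ketone reductase, had 14.8 in replicate 1 and 16.9 in replicate 2, and Msmo1, a methylsterol oxidase, had 13.5 and 15.5. Tm7sf2, a sterol reductase, had 3.05 and 2.77, and Ebp, a sterol isomerase, 1.34 and 1.42. Msmo1 was the only one of the 32 other genes with a listed region to hold the 8-base sterol element start, from 37 to 44, of which 3 bases lay in a footprint in replicate 1 and 5 in replicate 2. The 3 X-linked genes of the list, Nsdhl, Ebp and Mbtps2, had a median of 3.89 ± 0.41, against 8.57 ± 1.0 for the 30 autosomal ones. No median over all X-linked or all autosomal genes was taken, so whether this difference is particular to the pathway was not tested.

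In SREBP control, Mbtps1, the protease that cuts SREBPs first, had 14.1 in replicate 1 and 11.3 in replicate 2, and Insig2, the relative of Insig1, had 8.86 and 8.68. The range of Insig1, 13.5 to 17.7, stood above that of Insig2. Mbtps2, the protease of the next cut, had 4.13 and 4.18. Among the genes of uptake and transport, Npc1, which exports cholesterol from lysosomes, had 12.2 and 11.8, and Stard4, a cytosolic sterol carrier, 11.4 and 12.0. Scarb1, the HDL receptor, had 4.49 and 3.04.

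**Figure D3:**
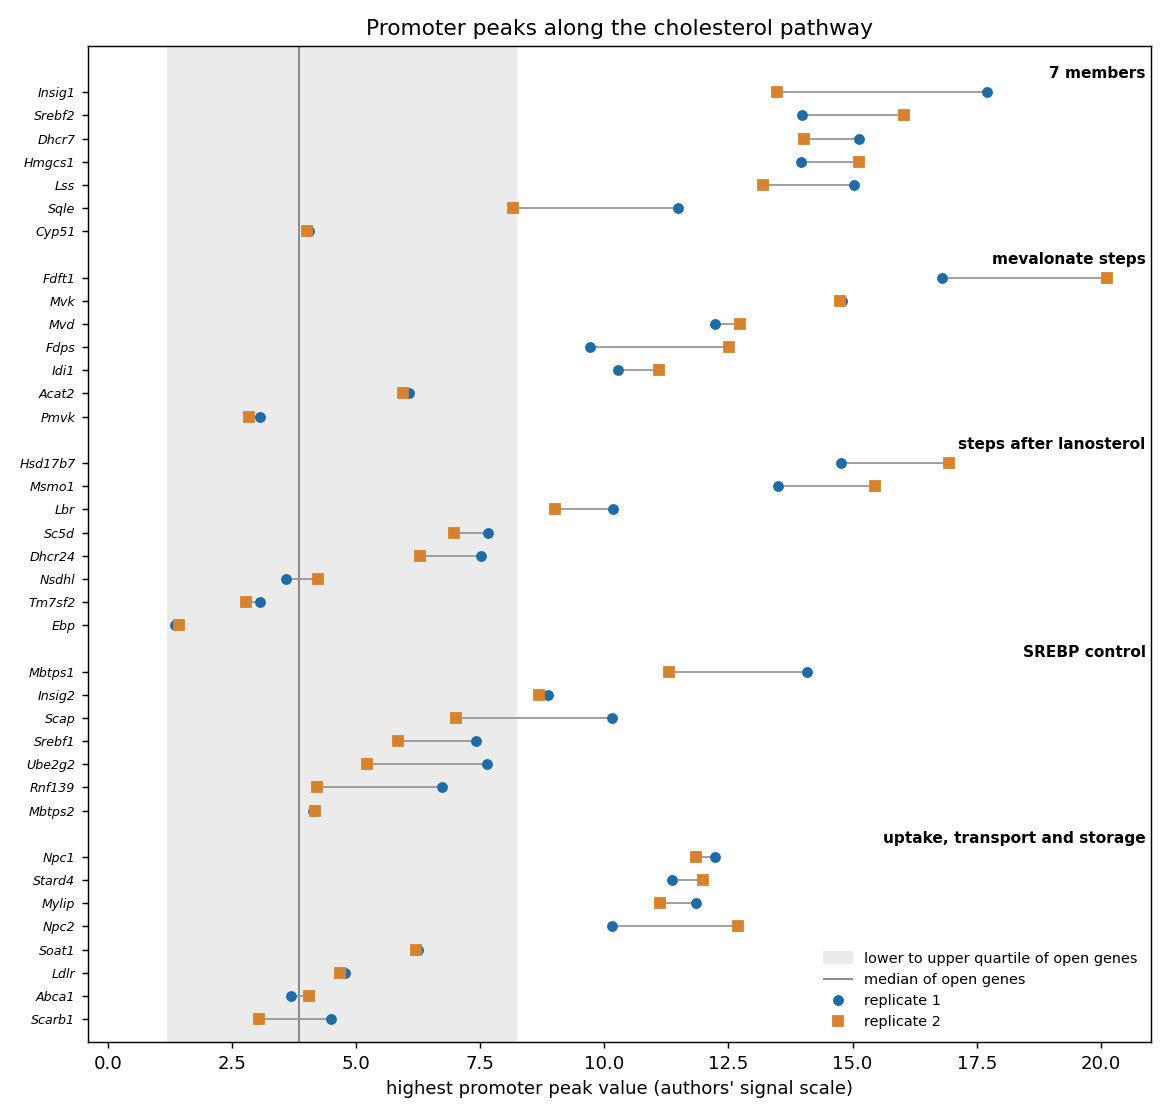
Highest promoter peak value (horizontal axis, the authors' signal scale) of the 7 genes and of other pathway genes by role, with replicate 1 and replicate 2 joined by a line, the grey band marking the lower to upper quartile of open genes and the grey line their median. Values spread widely within each role, from 2.95 to 18.5 as gene means in the mevalonate steps.

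Away from promoters, the 7 genes had 28 distal peaks in replicate 1 and 35 in replicate 2, counted up to 50 kb from any start where no promoter window reached. Of these, 24 in each library (85.7% and 68.6%) overlapped a peak of the other library, shares near those of all genes' distal peaks, 82.0% and 68.5%. The number per gene in replicate 1 and replicate 2 was 1 and 1 at Hmgcs1, 9 and 8 at Sqle, 2 and 2 at Lss, 1 and 1 at Cyp51, 4 and 7 at Dhcr7, 8 and 9 at Srebf2, and 3 and 7 at Insig1. The median per gene was 3 in replicate 1 and 7 in replicate 2 (5.0 ± 2.8), against 4 and 4 over all genes. Over open genes it was 5 and 6, and over open genes within the value range of the 7 it was 5 and 5. The peaks of Hmgcs1 lay at different places in the 2 libraries, near 37.5 kb in replicate 1 and 5.53 kb in replicate 2, so no distal peak of this gene was seen in both.

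By mean value, the strongest distal peak of the 7 lay 89.6 kb from the 5′ end of Srebf2, in an intron of Cenpm, with 1.91 in replicate 1 and 1.26 in replicate 2. It was counted only through the inner start at 47791, which lay 41709 bp away and itself had no peak. Within Srebf2, peaks near 18.3 and 22.7 kb were listed in both libraries. The distal peak closest in value between libraries among the strongest lay near -8.14 kb of Sqle, between genes, with 1.49 in both (1.49 ± 0.0025), the nearest start being 8057 bp away in replicate 1. Its whole length, chr15:59306841-59307040 (GRCm38.p6, plus strand), is shown because it is the strongest distal peak upstream of any of the 7 genes, with capitals as before:
Sqle distal peak: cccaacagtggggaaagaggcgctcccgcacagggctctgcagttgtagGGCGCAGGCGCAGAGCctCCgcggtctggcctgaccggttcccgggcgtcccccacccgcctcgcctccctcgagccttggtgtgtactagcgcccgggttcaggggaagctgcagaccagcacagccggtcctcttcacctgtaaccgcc
Lss had one peak at -18.2 kb in an intron of Mcm3ap, with 1.28 in replicate 1 and 0.800 in replicate 2, and Insig1 one at 22.8 kb between genes, with 0.919 and 0.683. In every case the promoter was much stronger than the strongest distal peak, by 5.48 times (Sqle, replicate 2) to 42.6 times (Hmgcs1, replicate 1). Other genes lie within these distances, and which gene a distal peak acts on was not tested.

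**Figure D4:**
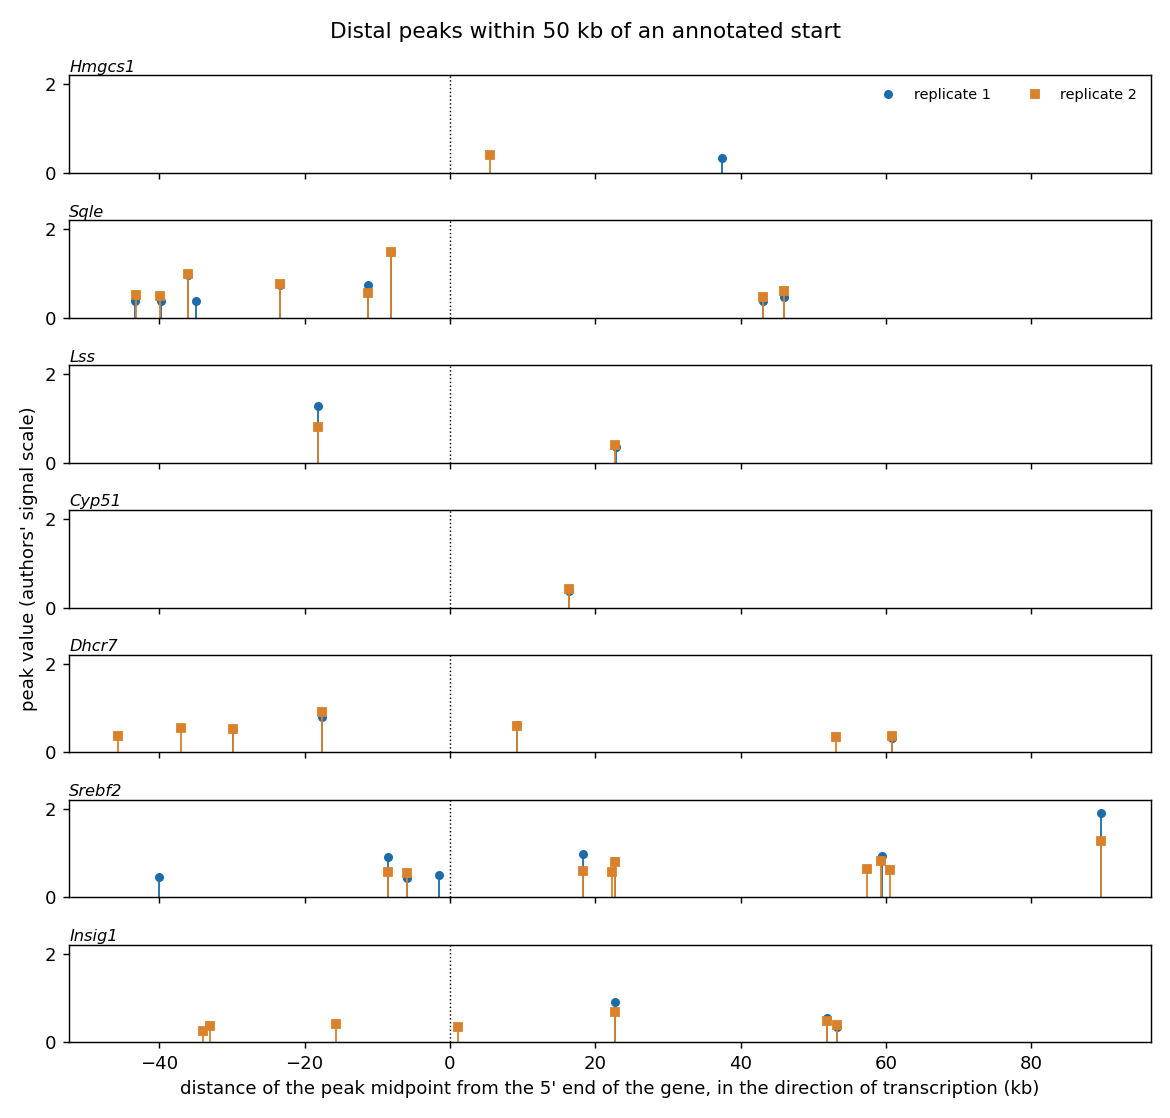
Distal peaks of the 7 genes by distance of the peak midpoint from the 5′ end in kb (horizontal axis) and value (vertical axis, the authors' signal scale) in replicate 1 and replicate 2. Sqle and Srebf2 have the most peaks, the highest stands at 89.6 kb from Srebf2, and Hmgcs1 and Cyp51 have 1 each per library.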

How the data were processed

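DNase-seq of testis from 2 libraries of 1 group was used as deposited. Per the deposited text descriptions, each library's peaks, footprints and FDR track were made from that library's own filtered alignments on mm10. No source used here gives the aligner or the callers. The peak value is a signal column set by the authors. The FDR track holds q-values, deposited by the authors up to 0.0499 in both libraries. In the footprint lists the authors' p-value is 0.01 throughout, so footprints were used by position only.

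Genes were 21911 protein-coding genes of GENCODE M21, with 1 gene kept per symbol, and all 7 members, 33 pathway genes and 18 markers were matched. The promoter value of a gene was the highest value among peaks of the longer list that overlap 1000 bp on either side of any annotated start, and 0 without one. A missing peak says only that none was listed. Overlaps counted from 1 bp. Peak regions span the highest peaks of both libraries, where these overlap. Motif letters were matched on GRCm38.p6 with Python 3.11.15, numpy 2.4.6, pandas 2.3.3 and pysam 0.24.0, and the overlap steps were tested on simulated data. Hybrid mice carry castaneus alleles, but the sequences are those of the reference genome.

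The members and lists were chosen with earlier results of these data known. Named are the 7 members, per pathway role the 2 genes of highest and the 2 of lowest mean value, and each pathway gene not open in both libraries; Nsdhl, Nadsyn1 and other neighbours were named after their values were seen. A further 3 genes under the rule are left unreported and undrawn, although counts and medians over the lists include them. Values are given as mean ± SD over 2 libraries, with no test. Alternatives were other windows, the 5′ end alone, the shorter peak list, peaks at or above the library's median value, other distal distances, footprints fully inside peaks, summed peak values and each library by itself.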

Additional observations from a re-analysis of the deposited data

How the results depend on the processing

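The promoter value of each of the 7 genes rested on the same highest peak under the other windows and peak lists, and leaving out 1 of 2 libraries cannot move a mean beyond its SD, so these recomputed values say nothing about stability. All 7 genes were open in both libraries under every alternative. With peak values summed in place of the highest, the median over the 7 genes was 14.9, against 13.7. The median number of distal peaks per gene, 5.0, was 2.0 with the shorter peak list, 1.5 with the stronger peaks alone, 2.0 within 25 kb and 10 within 100 kb. By one library at a time it was 3 to 7, the footprints in promoter peaks numbered 56 to 61, and 32 to 33 pathway genes were open. The 5′ end alone left 29 of 33 pathway genes open in both libraries. No paired analysis was possible because there is 1 group. Depth in reads is unknown, so no counting error was set on a peak value, and 2 libraries give a coarse SD.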
